A study of Mus musculus with 6 samples.

Results

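Nuclear hormone receptors were described in epididymal white adipose tissue (eWAT) of obese mice. The list held 43 receptor genes, and a gene was read through probe sets annotated with exactly 1 gene symbol, taking the brightest by its mean over all 6 arrays where a gene had several. Of the 43 receptors, 42 had such a probe set, each of them 1, among 19938 genes measured in this way. Nr2e3, a receptor of photoreceptor cells, had none and has no value here. All mice were male C57BL6/J kept on a high-fat diet (HFD) from an age of 6 weeks, for 12 weeks in all. The rAAV-Lmo3 group received the transcriptional adaptor Lmo3 in both epididymal fat pads by a recombinant adeno-associated virus of the hybrid serotype Rec2 after the diet had begun, and the rAAV-YFP group received yellow fluorescent protein in the same vector. Each group comprised 3 Affymetrix mouse Gene ST arrays, and each array was hybridized with total RNA of a pool of 2 mice. Expression was driven by a CMV enhancer and chicken beta-actin promoter, which is active in many cell types, and the tissue was measured whole. The labels are divided on the control, since sample titles name rAAV-YFP and the treatment protocol names rAAV-LacZ, and the titles are followed.

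Nuclear receptors are transcription factors that bind DNA as monomers, homodimers or, for many of them, heterodimers with a retinoid X receptor (RXR), and that recruit coactivators or corepressors depending on the ligand they hold. Their ligands include fatty acids, retinoids, thyroid hormone, steroids, bile acids and haem, while the members called orphan receptors have no settled hormone. In fat, PPARg is required for adipocyte differentiation and maintenance, and retinoid, thyroid hormone, corticosteroid and clock-linked receptors act on lipid storage and oxidation.

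Many receptors of this family read the half-site AGGTCA, alone or as a repeat. Shown here are windows of the 250 bases before a RefSeq start site. They belong to Rxrg, the receptor with the smallest p of the comparison, and to Pparg and Rxra, which pair as a dimer. Sequences are from RefSeq, build GRCm38.p6, written 5′ to 3′ on the plus strand, and capitals mark AGGTCA or its reverse complement TGACCT.
Rxrg chr1:167618015-167618264 (plus strand): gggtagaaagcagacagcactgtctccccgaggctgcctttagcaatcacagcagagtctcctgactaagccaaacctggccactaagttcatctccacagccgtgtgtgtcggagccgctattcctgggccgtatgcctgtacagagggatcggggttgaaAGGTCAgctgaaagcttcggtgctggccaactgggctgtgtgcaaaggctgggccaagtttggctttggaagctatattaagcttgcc
Rxra chr2:27709042-27709291 (plus strand): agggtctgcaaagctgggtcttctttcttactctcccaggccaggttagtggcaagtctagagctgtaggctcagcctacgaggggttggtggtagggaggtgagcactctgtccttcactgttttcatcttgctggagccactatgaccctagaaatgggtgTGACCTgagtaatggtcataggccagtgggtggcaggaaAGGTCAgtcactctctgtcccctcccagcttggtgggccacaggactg
Pparg chr6:115362099-115362348 (plus strand): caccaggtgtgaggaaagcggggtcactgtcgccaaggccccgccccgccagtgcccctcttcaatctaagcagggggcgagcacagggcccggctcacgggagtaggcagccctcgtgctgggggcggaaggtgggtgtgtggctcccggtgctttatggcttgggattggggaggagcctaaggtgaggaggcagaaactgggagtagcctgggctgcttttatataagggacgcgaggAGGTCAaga
The Rxra window held 2 half-sites, and the Rxrg and Pparg windows held 1 each. Rxrg and Rxra have 2 start windows each, of which the other held no match, and Pparg has 3, of which 1 more held a match. Searching both strands of the same 250 bases, AGGTCA was found in 11 of 60 windows of the receptors (18.3%), belonging to 10 of the 40 receptors that matched the table, and in 4607 of 32851 windows of all genes (14.0%). Besides these 3 genes the receptors with a match were Nr0b1, Nr1d2, Nr1h4, Nr5a2, Nr6a1, Rarg and Thrb. A match describes letters in a window and not a bound site.

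Values are intensities, a linear measure of hybridization per probe set, and differences are rAAV-Lmo3 minus rAAV-YFP on the log2 scale with the moderated standard error (SE) of limma. The median intensity of an array was between 123.0 and 127.5. Since probe sets differ in how they hybridize, intensities are compared between arrays and not between genes. The arrays rAAV-Lmo3 1 and rAAV-YFP 2 stood apart from the others, with a mean correlation to the other arrays of 0.986 and 0.988, against 0.990 to 0.991 for the remaining 4, and without both, the differences of 17 of the 26 receptors tested below moved by more than 1.5 times or turned sign. With any 1 of the 6 arrays left out this held for 25 of the 26, Rxrg being the exception. The probe set of Lmo3 itself read 24, 26 and 24 in rAAV-Lmo3 arrays and 25, 24 and 24 in rAAV-YFP arrays. These values are far under the background limit given below, and which part of the transcript the probe set reads was not determined, so it offers no check of the group labels. As a check of the labelled tissue, all 10 markers of mature adipocytes on the array were above background, and the 15 macrophage markers were above background as well. In this bulk tissue, fewer cells of a type and less RNA per cell cannot be told apart.

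To sort receptors into those detected in obese eWAT and those not, a background limit was taken from 1223 probe sets of olfactory, vomeronasal and trace-amine receptor genes, which belong to sensory neurons. Their 95th percentile lay at an intensity of 77.9. Of the 43 receptors, 29 were above this limit on all 6 arrays. All 3 PPARs, all 3 RXRs, all 3 retinoic acid receptors and both thyroid hormone receptors were among them, as were Esr1, Nr3c2, Esrra, Esrrg, Nr1d1, Nr1d2, Rora, Nr4a1, Nr4a2, Nr2f1, Nr2f2, Nr2f6, Nr2c1, Nr2c2, Hnf4a, Nr5a1, Nr5a2 and Nr6a1. All 4 bile acid and xenobiotic receptors were not above the limit on all arrays, namely the farnesoid X receptor Nr1h4, the pregnane X receptor Nr1i2, the constitutive androstane receptor Nr1i3 and the small heterodimer partner Nr0b2. Nor were Vdr, Esr2, Pgr, Esrrb, Rorb, Nr4a3, Nr2e1, Hnf4g and Nr0b1. Among all 19938 genes, 67.2% were above the limit on all arrays. With the 99th percentile as the limit (7.12 on the log2 scale), 21 receptors remained above it, so that calls for the dimmest of the 29 rest on the choice of limit. Those not above it on all arrays were Rarb, Nr3c2, Esrrg, Nr2f1, Hnf4a, Nr5a1, Nr5a2 and Nr6a1.

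**Figure D1:**
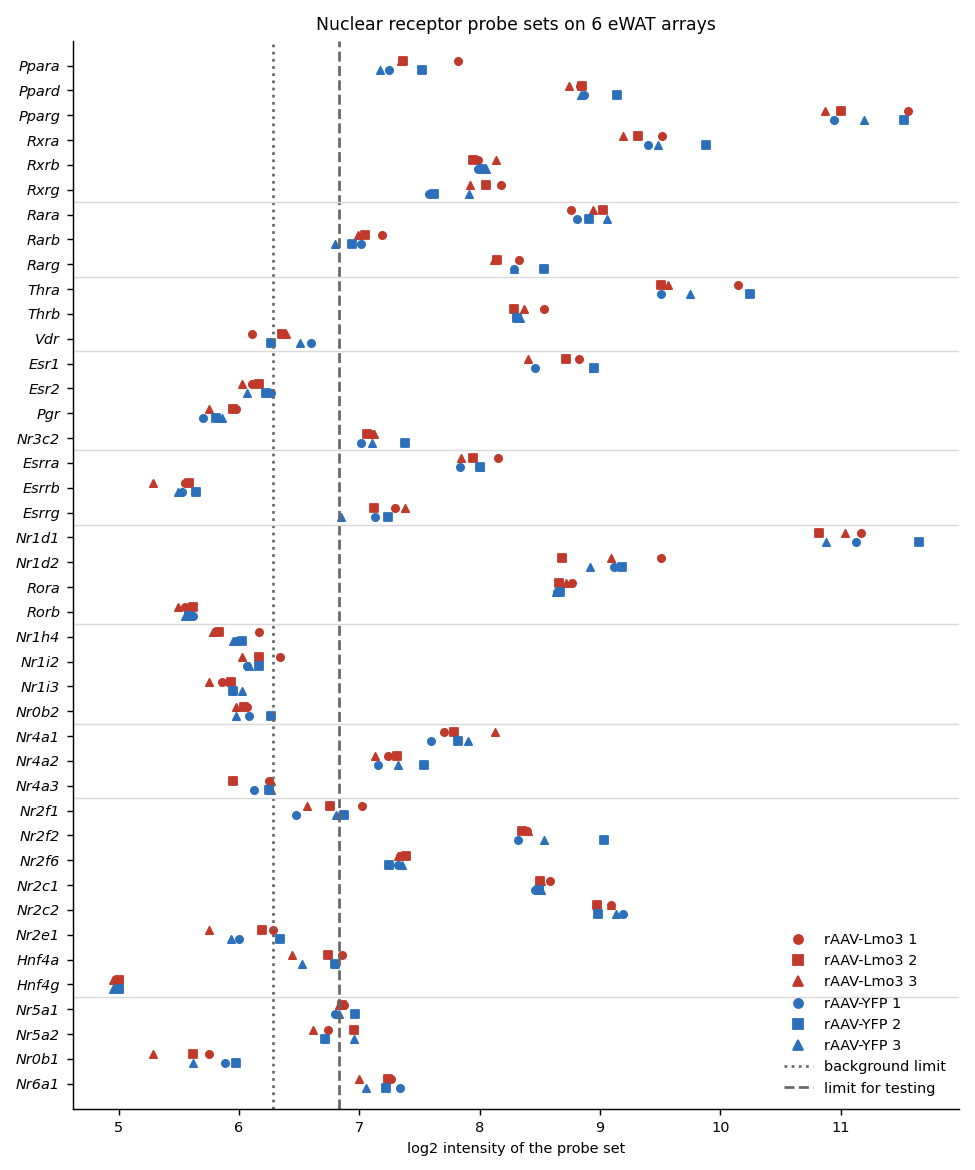
Log2 intensity of the 42 receptor probe sets on each of the 6 arrays (red, rAAV-Lmo3; blue, rAAV-YFP; the marker shape gives the replicate number), with grey lines between role groups. The dotted line is the background limit (6.28) and the dashed line the limit under which genes were not tested (6.83); positions are not comparable between receptors.

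A test was run for the genes above the dimmest 40% by their mean over all 6 arrays, which left 11963 of 19938 genes and 26 of the 42 receptors. None of the 26 receptors passed limma with Benjamini-Hochberg adjustment over all genes tested, where the smallest adjusted p of a receptor was 0.970. The same held for all 11963 genes (0.0%), with a smallest adjusted p of 0.669. At an unadjusted p under 0.05, 1 of 26 receptors passed limma (3.85%), beside 4.66% of all genes tested, and 0 receptors passed the methods' t-test, beside 4.64%. The groups did not overlap for 1 of 26 receptors, which was higher in rAAV-Lmo3, beside 10.5% of all genes (4.53% higher and 5.95% lower). A difference of at least 0.3 in either direction was also reached by 1 receptor, beside 6.04%. The receptors were thus called no more often than other genes.

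Signs were divided. Of the 26 receptors, 12 had a difference above 0 and 14 below 0, while 50.3% of all genes tested were above 0. The median difference was −0.01 over the receptors and 0.00 over all genes tested, and the median size of the difference was 0.0863 for receptors and 0.0865 for all genes. The SE of a receptor's difference was between 0.07 and 0.24, with a median of 0.11, so that 3 pools a group give wide intervals for the most variable receptors.

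**Figure D2:**
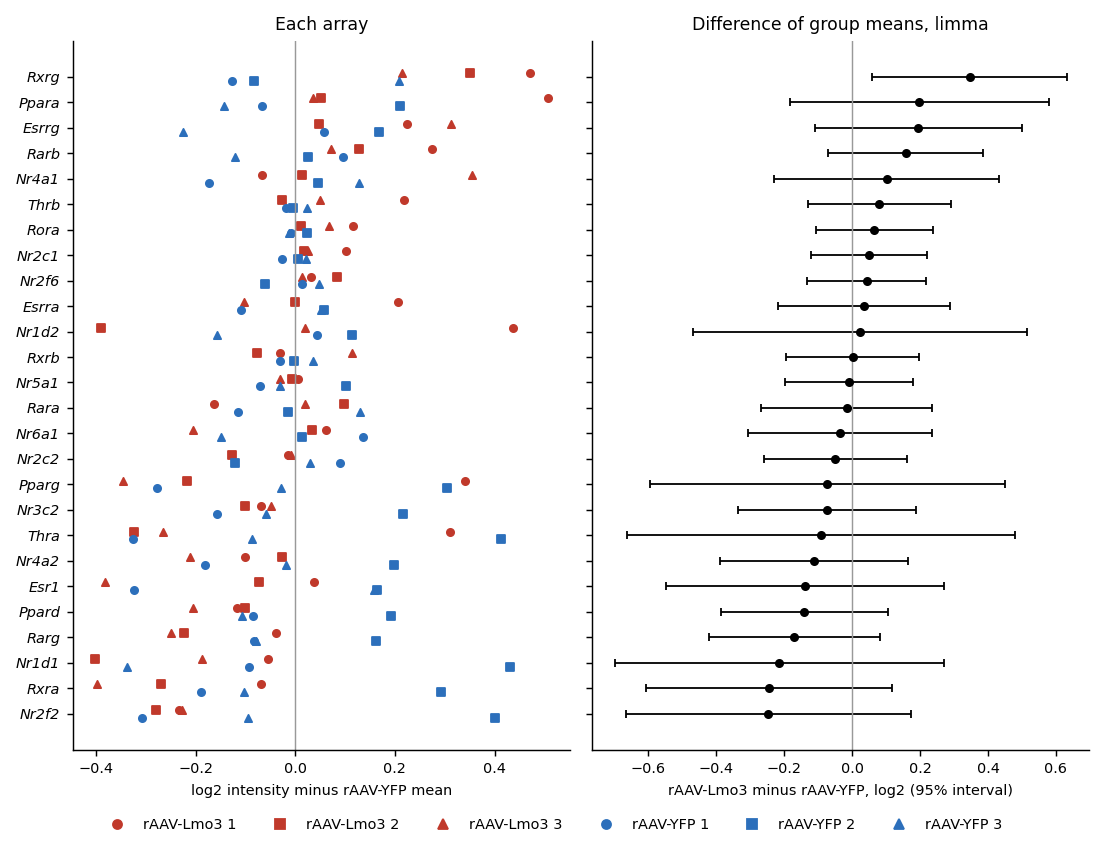
Left, log2 intensity of each array minus the rAAV-YFP mean for the 26 tested receptors (red, rAAV-Lmo3; blue, rAAV-YFP). Right, difference of the group means from limma with its 95% interval; only the interval of Rxrg (0.06 to 0.63) lies clear of 0 before adjustment.

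Rxrg, the RXR form best known from muscle and brain, was the receptor with the largest difference. Its intensity was 289, 266 and 242 in rAAV-Lmo3 arrays and 191, 197 and 241 in rAAV-YFP arrays. All rAAV-Lmo3 arrays lay above all rAAV-YFP arrays, although the lowest of the one and the highest of the other were only 1 unit of intensity apart. The difference was 0.35 ± 0.12 (SE), a fold of 1.27, with a 95% interval of 0.06 to 0.63 (unadjusted p of 0.0248 and adjusted p = 0.970, limma). The exact permutation test gave p = 0.1, the smallest that 3 arrays against 3 can give. Without both arrays that stood apart the difference was 0.24 ± 0.13 and the unadjusted p of limma was above 0.05. Leaving out 1 array gave 0.28 to 0.45, with an unadjusted p above 0.05 in the absence of rAAV-Lmo3 1, rAAV-Lmo3 2, rAAV-YFP 1 or rAAV-YFP 2. It was under 0.05 in 8 of the 15 alternatives that kept Rxrg. The summed intensity of the 10 brown adipocyte markers did not overlap between groups either, at 2714, 1537 and 1645 in rAAV-Lmo3 arrays and 1244, 1425 and 1388 in rAAV-YFP arrays, with 6 of the 10 not above background on all arrays. Cox8b alone made this separation, since without it the sum was 1697, 1186 and 1302 in rAAV-Lmo3 arrays and 1069, 1236 and 1143 in rAAV-YFP arrays, with overlap. For the 8 skeletal muscle markers the sum was 1729, 1293 and 1157 in rAAV-Lmo3 arrays and 1314, 1977 and 1214 in rAAV-YFP arrays. The part of either cell type in the Rxrg values was not tested.

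Rxra, the RXR that pairs with PPARg in adipocytes, was measured at 733, 638 and 584 in rAAV-Lmo3 arrays and 675, 942 and 716 in rAAV-YFP arrays. The groups overlapped, and rAAV-YFP 2 was the highest of all 6. The difference of −0.25 ± 0.15 had an interval of −0.61 to 0.12 (adjusted p = 0.970, limma), and it was −0.10 without rAAV-YFP 2. Rxrb, the third RXR, differed by 0.00 ± 0.08 and was between 246 and 281 on all arrays.

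Pparg had intensities of 3021, 2052 and 1877 in rAAV-Lmo3 arrays and 1968, 2946 and 2338 in rAAV-YFP arrays. Each group thus held 1 high array, rAAV-Lmo3 1 and rAAV-YFP 2, and the other 4 arrays lay between 1877 and 2338. The Pparg difference was −0.07 ± 0.22, with an interval of −0.60 to 0.45. Ppara, which drives fatty acid oxidation genes, was 226, 165 and 163 in rAAV-Lmo3 arrays and 152, 184 and 144 in rAAV-YFP arrays. The rAAV-Lmo3 1 array was the highest, and the other 2 of its group lay within the range of the rAAV-YFP arrays. Its difference of 0.20 ± 0.16 had an interval of −0.18 to 0.58 and was between 0.04 and 0.30 when 1 array was left out. Ppard, the broadly expressed PPAR, differed by −0.14 ± 0.10, and by −0.045 without rAAV-YFP 2.

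Genes that PPARs are known to act on were read from a list of 38, of which 33 had a probe set and 29 were tested. None passed the adjusted test. At an unadjusted p under 0.05, 7 were higher in rAAV-Lmo3 and 0 lower, beside 2.27% and 2.4% of all genes. Of the 29, 21 had a difference above 0, and the median was 0.10 beside 0.00 over all genes. The 4 with the smallest p were Acadl, Ucp3, Cpt2 and Gpd1, the glycerol-3-phosphate dehydrogenase that supplies the backbone of triglycerides. Gpd1 was 6413, 6985 and 6540 in rAAV-Lmo3 arrays and 4113, 4682 and 5519 in rAAV-YFP arrays. All rAAV-Lmo3 arrays were above all rAAV-YFP arrays for Gpd1, with a difference of 0.49 ± 0.12 (adjusted p = 0.970, limma). The list was not higher throughout. Small differences were found for Fabp4 (−0.04 ± 0.09), Cd36 (0.03 ± 0.08), Lpl (0.06 ± 0.08) and Adipoq (−0.03 ± 0.15), which were named after their values were seen. The study reported PPAR signalling genes from these arrays, so the list is not independent evidence of its direction.

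Retinoic acid receptors bind all-trans retinoic acid and act as heterodimers with RXRs. Rara differed by −0.02 ± 0.11 and Rarb by 0.16 ± 0.10. Rarg, at −0.17 ± 0.11, was 322, 283 and 278 in rAAV-Lmo3 arrays and 312, 370 and 313 in rAAV-YFP arrays, with overlap between the groups. None of the 3 passed the test. Of 22 retinoid target and handling genes, 15 were tested, 7 of them above 0 and 8 below, with a median of −0.00 and 1 gene higher at an unadjusted p under 0.05. That gene was Aldh1a7, an aldehyde dehydrogenase closely related to the retinaldehyde dehydrogenase Aldh1a1, with 1450, 2197 and 2134 in rAAV-Lmo3 arrays and 1228, 1109 and 1669 in rAAV-YFP arrays. The groups overlapped, since rAAV-Lmo3 1 was below rAAV-YFP 3 (0.53 ± 0.21, limma adjusted p = 0.970). Aldh1a1, which makes retinoic acid from retinaldehyde, had a difference of the other sign (−0.39 ± 0.18), with 1003, 1174 and 1082 in rAAV-Lmo3 arrays and 1237, 1239 and 1884 in rAAV-YFP arrays. Here all rAAV-Lmo3 arrays were below all rAAV-YFP arrays, without reaching an unadjusted p under 0.05, and the difference was −0.19 without rAAV-YFP 3. Retsat, the retinol saturase, differed by 0.38 ± 0.16 and by 0.20 without rAAV-Lmo3 1. The retinol dehydrogenase Rdh10 differed by 0.14 ± 0.09.

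Thyroid hormone receptors regulate thermogenic and lipogenic genes. Thra was 1133, 729 and 760 in rAAV-Lmo3 arrays and 728, 1216 and 860 in rAAV-YFP arrays. The high arrays were again rAAV-Lmo3 1 and rAAV-YFP 2, and the other 4 lay between 728 and 860. Its difference of −0.09 ± 0.24 had the largest SE of the tested receptors, and its interval was −0.66 to 0.48. Thrb showed far less spread, with 371, 313 and 330 in rAAV-Lmo3 arrays and 315, 318 and 324 in rAAV-YFP arrays, and differed by 0.08 ± 0.09, and by 0.011 without rAAV-Lmo3 1. The rAAV-Lmo3 1 array was the highest for Thrb, and the other 5 lay between 313 and 330. The vitamin D receptor Vdr was dim, with intensities of 69 to 84 in rAAV-Lmo3 arrays and 77 to 97 in rAAV-YFP arrays, and was not tested.

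Of 15 thyroid hormone target, activation and transport genes, 9 were tested, with 1 higher and 1 lower at an unadjusted p under 0.05 and a median of 0.04, which was −0.20 without rAAV-Lmo3 1. Me1, the malic enzyme that yields NADPH for lipid synthesis, was 5408, 5470 and 5203 in rAAV-Lmo3 arrays and 3233, 3870 and 4263 in rAAV-YFP arrays. Klf9, a transcription factor that answers thyroid hormone and glucocorticoids, was 1328, 1105 and 1034 in rAAV-Lmo3 arrays and 1564, 1837 and 1432 in rAAV-YFP arrays. For both genes the groups did not overlap, in opposite directions, with 0.51 ± 0.11 for Me1 and −0.48 ± 0.13 for Klf9, and an adjusted p of 0.970 for each (limma). Hr, a corepressor induced by thyroid hormone, differed by −0.20 ± 0.15, and the transporter Slc16a10 by 0.06 ± 0.09. Of the 12 vitamin D genes, 3 were tested and had differences below 0, namely Rxra, Tnfrsf11b (−0.03 ± 0.09) and the sterol hydroxylase Cyp27a1 (−0.05 ± 0.21).

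Among steroid receptors, Esr1 and Nr3c2 were above background, whereas Esr2 and Pgr were not. Esr1, the oestrogen receptor alpha, was 453, 420 and 339 in rAAV-Lmo3 arrays and 353, 495 and 493 in rAAV-YFP arrays. Both groups held 1 low array, rAAV-Lmo3 3 and rAAV-YFP 1, and they overlapped (−0.14 ± 0.17, interval −0.55 to 0.27). Nr3c2, the mineralocorticoid receptor, was 137, 134 and 139 in rAAV-Lmo3 arrays and 129, 167 and 138 in rAAV-YFP arrays. Its 3 rAAV-Lmo3 arrays lay within the range of the rAAV-YFP arrays, with a difference of −0.07 ± 0.11 (interval −0.34 to 0.19). Esr2 was between 65 and 77, and Pgr, the progesterone receptor, between 52 and 63.

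Genes induced by corticosteroids, which bind the mineralocorticoid receptor and the glucocorticoid receptor, were set beside Nr3c2. The glucocorticoid receptor is not among the 43 receptors listed here, so these genes do not read Nr3c2 alone. Of 14 tested genes of 18 listed, 12 had a difference below 0, while 50.3% of all genes tested were above 0. At an unadjusted p under 0.05, 4 were lower in rAAV-Lmo3 and 0 higher, beside 2.4% and 2.27% of all genes. The median of −0.24 was −0.22 without rAAV-Lmo3 1 and −0.21 without rAAV-YFP 2. Markers of some other cell types lay on the same side of 0, and those of others did not. Above 0 were 13 of 15 tested macrophage markers (median 0.12, but −0.12 without rAAV-YFP 2 and 0.45 without rAAV-Lmo3 1). So were 4 of 5 neutrophil and mast cell markers (median 0.40, and 0.11 without rAAV-YFP 2). The remaining marker of that list, Kit, was lower in rAAV-Lmo3 with no overlap (−0.30 ± 0.10). All 4 tested brown adipocyte markers were above 0 too (median 0.29). All 4 tested lymphocyte markers were below 0 (median −0.36), 2 of them at an unadjusted p under 0.05. The sum over the 11 on the array was 1160, 1126 and 1175 in rAAV-Lmo3 arrays and 1299, 1192 and 1900 in rAAV-YFP arrays, with no overlap. Of the 11, 5 were not above background on all arrays. Ighm had no overlap, with 257, 194 and 216 in rAAV-Lmo3 arrays and 324, 282 and 541 in rAAV-YFP arrays. Nor had Cd3e, with 183, 245 and 220 in rAAV-Lmo3 arrays and 268, 248 and 355 in rAAV-YFP arrays. Without Ighm the sums overlapped, and so they did without Cd3e. All 7 tested smooth muscle and pericyte markers were below 0 as well (median −0.23, and −0.055 without rAAV-Lmo3 1), with sums over the 8 on the array of 5432 to 8276 in rAAV-Lmo3 arrays and 7451 to 9254 in rAAV-YFP arrays. The same held for all 6 tested mesothelial markers (median −0.33), with sums over 8 of 982 to 1307 in rAAV-Lmo3 arrays and 1006 to 2329 in rAAV-YFP arrays. None of these markers passed the adjusted test, and their part in the values of this list was not tested. Tsc22d3, the glucocorticoid-induced leucine zipper, was 724, 518 and 522 in rAAV-Lmo3 arrays and 783, 999 and 752 in rAAV-YFP arrays, all rAAV-Lmo3 arrays being below all rAAV-YFP arrays (−0.53 ± 0.17). Fkbp5, a chaperone of the steroid receptor complex, was 513, 422 and 351 in rAAV-Lmo3 arrays and 772, 680 and 469 in rAAV-YFP arrays. The Fkbp5 groups overlapped at rAAV-Lmo3 1 and rAAV-YFP 3 (−0.57 ± 0.22). Zbtb16 and Per1 were the other 2 genes, and the adjusted p was 0.970 for all 4. The 2 genes above 0 were Sgk1 (0.10 ± 0.14) and Lcn2 (1.27 ± 0.61), a lipocalin also made by myeloid cells, which was 474, 1542 and 1390 in rAAV-Lmo3 arrays and 604, 190 and 634 in rAAV-YFP arrays. These 2 were named after their values were seen. For sex steroids, 11 of 19 listed genes were tested, and Hsd17b12, an enzyme of fatty acid elongation and steroid metabolism, was the one with an unadjusted p under 0.05. It was 2445, 1996 and 2134 in rAAV-Lmo3 arrays and 1645, 1708 and 1525 in rAAV-YFP arrays, with no overlap (0.43 ± 0.10, limma adjusted p = 0.970). Igf1 (0.16 ± 0.08), Hsd17b4 (0.09 ± 0.07) and Igfbp4 (−0.22 ± 0.15) did not reach it.

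**Figure D3:**
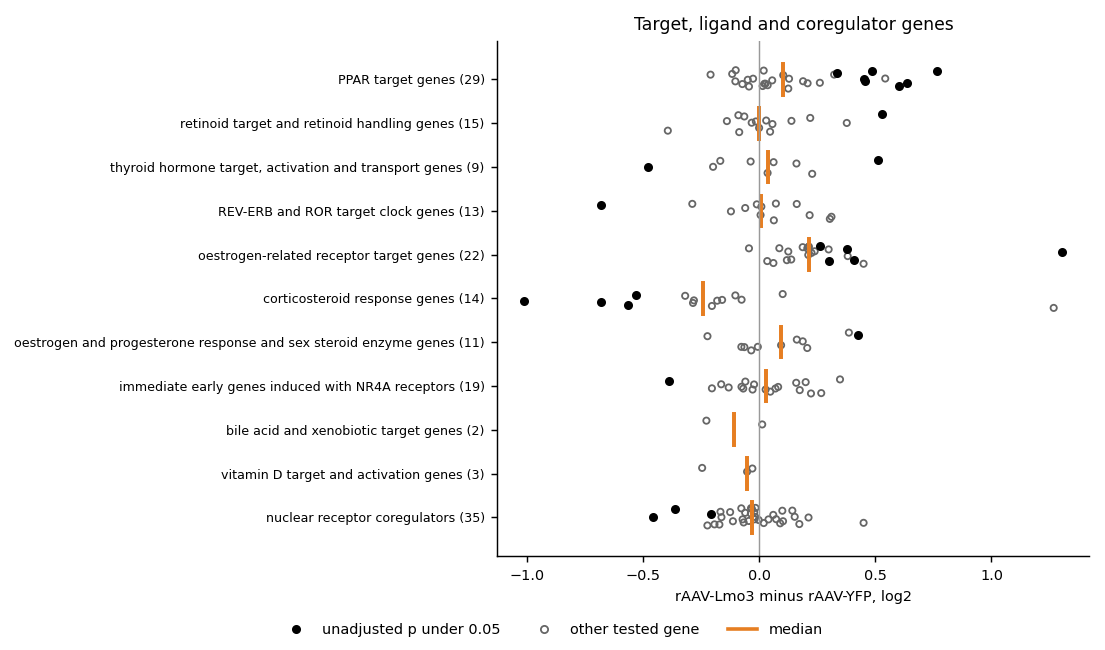
Difference between rAAV-Lmo3 and rAAV-YFP (log2) of each tested gene in 11 lists of target, ligand and coregulator genes, with the number tested in brackets; filled points have an unadjusted p under 0.05 (limma) and orange bars are medians. The median was 0.21 for targets of oestrogen-related receptors and −0.24 for corticosteroid response genes, against 0.00 over all genes; the vertical position of points within a list has no meaning.

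Oestrogen-related receptors are orphan receptors that act with PGC-1 coactivators on genes of mitochondrial respiration. Esrra was 285, 247 and 230 in rAAV-Lmo3 arrays and 229, 257 and 256 in rAAV-YFP arrays. It was highest on rAAV-Lmo3 1 and the groups otherwise overlapped (0.03 ± 0.11, interval −0.22 to 0.29). Esrrg differed by 0.19 ± 0.13, with 157, 139 and 167 in rAAV-Lmo3 arrays and 140, 151 and 115 in rAAV-YFP arrays, and Esrrb was between 39 and 50 and not tested. Of the 22 tested genes of their target list, 21 had a difference above 0, beside 50.3% of all genes tested, and the median was 0.21. At an unadjusted p under 0.05, 5 were higher and 0 lower, beside 2.27% and 2.4% of all genes. Cycs, the electron carrier cytochrome c, was 4290, 3440 and 3870 in rAAV-Lmo3 arrays and 3029, 2861 and 2822 in rAAV-YFP arrays. Every rAAV-Lmo3 array was above every rAAV-YFP array for Cycs (0.41 ± 0.10), and likewise for Cox8b (1.31 ± 0.42, and 0.79 without rAAV-Lmo3 1), for the succinate dehydrogenase subunit Sdhd (0.38 ± 0.12, and 0.24 without both arrays that stood apart) and for the citrate synthase Cs (0.26 ± 0.09). The adjusted p of all 4 was 0.970. Without rAAV-Lmo3 1 the median of the list was 0.14, and without both arrays that stood apart it was 0.12. The brown adipocyte markers, of which all 4 tested were above 0 (median 0.29), share Cox8b and Ppargc1a with this list, and without these 2 genes 19 of 20 were above 0 with a median of 0.21. Their sum is given with Rxrg, and their part in this list was not tested. The list also shares genes with mitochondrial sets that the study reported from these arrays, so it is not independent evidence of a direction.

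REV-ERB receptors repress and ROR receptors activate clock genes through shared elements. Nr1d1, the haem-binding REV-ERB alpha, was 2297, 1807 and 2096 in rAAV-Lmo3 arrays and 2237, 3219 and 1888 in rAAV-YFP arrays. Apart from rAAV-YFP 2 all arrays were between 1807 and 2297, and the groups overlapped. Its difference of −0.21 ± 0.20 (interval −0.70 to 0.27) was 0.00 without rAAV-YFP 2. Nr1d2, REV-ERB beta, was 729, 411 and 546 in rAAV-Lmo3 arrays and 555, 583 and 483 in rAAV-YFP arrays. The rAAV-Lmo3 arrays held both its highest and its lowest value (0.02 ± 0.21, interval −0.47 to 0.51). Rora had 435, 405 and 421 in rAAV-Lmo3 arrays and 399, 408 and 398 in rAAV-YFP arrays. Only rAAV-Lmo3 2 lay below the highest rAAV-YFP array, and the difference was 0.065 ± 0.072 (interval −0.11 to 0.24). Rorb, a receptor of brain and retina, was between 45 and 49. On chromosome 11 the annotated Nr1d1 and Thra genes overlap by 1075 bases. Both were highest of their rAAV-YFP group on rAAV-YFP 2. The same held for 16 of the 26 tested receptors in all (61.5%), beside 34.1% of all genes tested. Of 13 tested clock genes, 8 were above 0 and 5 below with a median of 0.01, and Per1 was the one gene with an unadjusted p under 0.05. The clock output gene Dbp differed by 0.31 ± 0.18, Nfil3, a repressor of the same sites, by 0.30 ± 0.19 and the clock repressor Cipc by 0.16 ± 0.13. These values moved with single arrays, as Dbp was at 0.16 without rAAV-Lmo3 1, Nfil3 at 0.17 without rAAV-Lmo3 2 and Cipc at 0.030 without rAAV-YFP 2. The hour at which tissue was taken is not given in the labels.

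The bile acid and xenobiotic receptors were dim, and so were their targets. Intensities of Nr1h4, Nr1i2, Nr1i3 and Nr0b2 were between 54 and 81 in rAAV-Lmo3 arrays and between 62 and 77 in rAAV-YFP arrays. Nr1i3 was 58, 61 and 54 in rAAV-Lmo3 arrays and 62, 62 and 65 in rAAV-YFP arrays, so its groups did not overlap, but all 6 values were under the background limit and no difference is read from them. Of 16 target genes with a probe set, 12 were not above background on all arrays, and the 2 tested were the drug transporters Abcb1a (−0.23 ± 0.13) and Abcc3 (0.01 ± 0.09).

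NR4A receptors are immediate early genes that are induced by cyclic AMP and stress. Nr4a1 was 209, 221 and 280 in rAAV-Lmo3 arrays and 194, 226 and 239 in rAAV-YFP arrays. The rAAV-Lmo3 3 array was the highest and the groups overlapped (0.10 ± 0.14, interval −0.23 to 0.43). Nr4a2 differed by −0.11 ± 0.12, and by −0.014 without rAAV-YFP 2, and Nr4a3 was between 62 and 77 and was not tested. Of 19 tested immediate early genes, 10 were above 0 and 9 below, with a median of 0.03. Btg2, an antiproliferative gene, was the one with an unadjusted p under 0.05. It was 393, 427 and 418 in rAAV-Lmo3 arrays and 494, 574 and 557 in rAAV-YFP arrays, with no overlap (−0.39 ± 0.09, limma adjusted p = 0.970). Ier3 (0.27 ± 0.17), Ier2 (0.20 ± 0.12) and the phosphatase Dusp1 (−0.20 ± 0.15) did not reach it.

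Of the remaining orphan receptors, none of those tested passed the adjusted test. Nr2f2, or COUP-TFII, a receptor of mesenchymal and venous cells, was 337, 326 and 338 in rAAV-Lmo3 arrays and 320, 523 and 371 in rAAV-YFP arrays. The rAAV-Lmo3 arrays lay between 326 and 338, while rAAV-YFP 2 stood far above the other 5. Its difference of −0.25 ± 0.18 (interval −0.67 to 0.17) was −0.05 without rAAV-YFP 2 and −0.40 without rAAV-YFP 1, where its unadjusted p was under 0.05 (adjusted p = 0.94, limma). The testicular receptors Nr2c1 (0.05 ± 0.07) and Nr2c2 (−0.05 ± 0.09) and the COUP-TF relative Nr2f6 (0.04 ± 0.07) had small differences of either sign. Nr2f1, or COUP-TFI, was above background but below the limit for testing, with 130, 108 and 95 in rAAV-Lmo3 arrays and 89, 117 and 112 in rAAV-YFP arrays. Hnf4a, a liver and gut receptor, was likewise dim, with 116, 107 and 87 in rAAV-Lmo3 arrays and 111, 111 and 92 in rAAV-YFP arrays. Its relative Hnf4g was between 31 and 32, and Nr2e1, a receptor of neural stem cells, between 54 and 81.

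Receptors known from the gonads, adrenal and germ cells were near the limits. The steroidogenic factor Nr5a1 differed by −0.01 ± 0.08, with 117, 116 and 114 in rAAV-Lmo3 arrays and 111, 125 and 114 in rAAV-YFP arrays, and its mean lay just above the limit for testing of 114. The germ cell receptor Nr6a1 differed by −0.04 ± 0.11. Nr5a2, the liver receptor homologue, was above background but too dim to be tested, at 107, 124 and 98 in rAAV-Lmo3 arrays and 105, 105 and 124 in rAAV-YFP arrays. Nr0b1, which lacks the usual DNA-binding domain, was 54, 49 and 39 in rAAV-Lmo3 arrays and 59, 63 and 49 in rAAV-YFP arrays, all under the background limit. Of 10 epididymis and testis markers on the array, 7 were not above background on all arrays, while the sperm gene Prm2 was 562, 157 and 721 in rAAV-Lmo3 arrays and 541, 180 and 400 in rAAV-YFP arrays, and Prm1 was 564, 142 and 524 in rAAV-Lmo3 arrays and 439, 248 and 360 in rAAV-YFP arrays. Both were lowest of their group on rAAV-Lmo3 2 and rAAV-YFP 2, and the part of such tissue in the receptor values was not tested. Over the 16 untested receptors 3 differences were above 0 and 12 below, between −0.27 and 0.11, and that of Hnf4g was 0.00.

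Coregulators carry the signal of a bound receptor to chromatin and RNA polymerase. Of 38 listed genes, 35 had a probe set and all of these were tested. Of the 35, 12 were above 0 and 23 below, with a median of −0.03, while 50.3% of all genes tested were above 0. At an unadjusted p under 0.05, 3 were lower in rAAV-Lmo3 and 0 higher, beside 2.4% and 2.27% of all genes. Ncoa2, a p160 coactivator of the family of Ncoa1, was 626, 591 and 585 in rAAV-Lmo3 arrays and 696, 738 and 650 in rAAV-YFP arrays. For Tle3, a coregulator that acts with PPARg in adipocytes, the values were 635, 600 and 537 in rAAV-Lmo3 arrays and 769, 862 and 655 in rAAV-YFP arrays. Cited2, a partner of CBP and p300, was 811, 656 and 847 in rAAV-Lmo3 arrays and 973, 1378 and 869 in rAAV-YFP arrays. In all 3 genes every rAAV-Lmo3 array was below every rAAV-YFP array, with differences of −0.21 ± 0.08 for Ncoa2, −0.36 ± 0.12 for Tle3 and −0.46 ± 0.19 for Cited2 (−0.26 without rAAV-YFP 2), each with an adjusted p of 0.970 (limma). Carm1, an arginine methyltransferase that p160 coactivators recruit, also had no overlap (−0.22 ± 0.09, and −0.13 without both arrays that stood apart). Ncoa1 was 918, 713 and 687 in rAAV-Lmo3 arrays and 743, 823 and 760 in rAAV-YFP arrays, with the rAAV-Lmo3 arrays on both sides of the rAAV-YFP range (interval −0.32 to 0.29).

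The arrays that stood apart shared a pattern over the receptors. On rAAV-Lmo3 1, 16 of 26 receptors were above both other rAAV-Lmo3 arrays (61.5%), beside 41.1% of all genes tested. On rAAV-YFP 2, also 16 of 26 were above both other rAAV-YFP arrays (61.5%), beside 34.1% of all genes. Both held for 11 receptors (42.3%), beside 20.7% of all genes. Against the mean of the other 2 arrays of its group, the receptors had a median deviation of 0.11 on rAAV-Lmo3 1 and of 0.16 on rAAV-YFP 2, beside 0.00 and −0.02 over all genes. Pparg deviated by 0.62 on rAAV-Lmo3 1 and 0.46 on rAAV-YFP 2, and Thra by 0.61 and 0.62. Nr1d1 (0.65) and Nr2f2 (0.60) deviated mainly on rAAV-YFP 2 and Nr1d2 (0.62) mainly on rAAV-Lmo3 1, while Nr4a1 and Rara were below the other arrays of their group on rAAV-Lmo3 1. These shares describe 2 arrays and have no test.

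**Figure D4:**
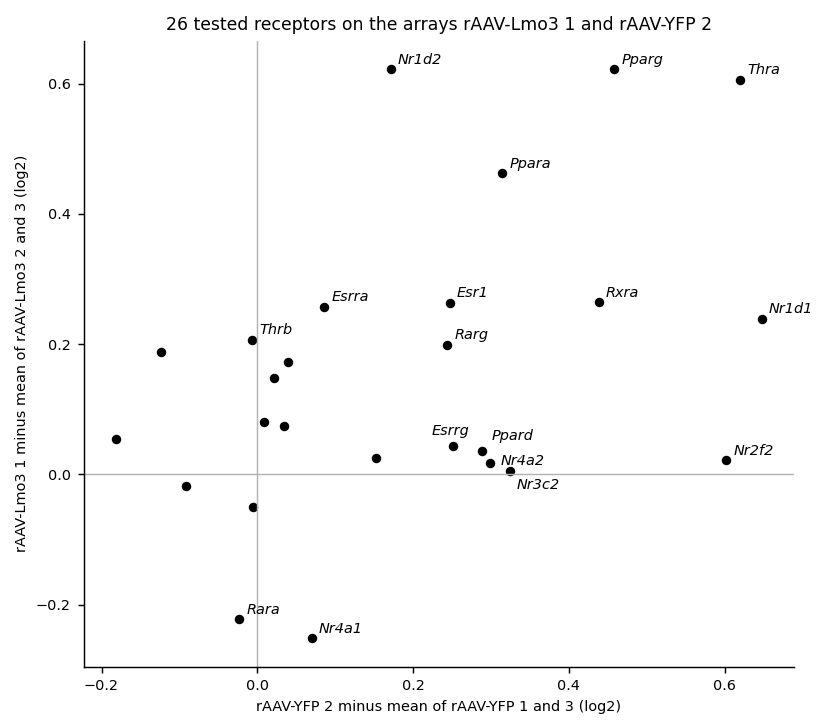
Deviation of rAAV-Lmo3 1 from the mean of rAAV-Lmo3 2 and 3 (vertical, log2) against that of rAAV-YFP 2 from the mean of rAAV-YFP 1 and 3 (horizontal, log2) for the 26 tested receptors; those that deviate by more than 0.2 are named. Thra and Pparg lie far from 0 on both axes, Nr2f2 and Nr1d1 mainly to the right.

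Cell type markers differed between the same arrays. The summed intensity of 15 macrophage markers was 24037, 36103 and 41722 in rAAV-Lmo3 arrays and 42931, 19655 and 30988 in rAAV-YFP arrays, lowest of its group on rAAV-Lmo3 1 and on rAAV-YFP 2, where 13 of the 15 markers were below both other arrays of the group. The sum of the 10 mature adipocyte markers was 87850, 78978 and 73155 in rAAV-Lmo3 arrays and 76410, 89825 and 83018 in rAAV-YFP arrays, highest of its group on those same arrays. For stromal cells, the sum over 8 markers was 14652, 16892 and 18117 in rAAV-Lmo3 arrays and 18150, 14397 and 16664 in rAAV-YFP arrays, lowest on them. All markers of these 3 lists were above background on every array. Endothelial and smooth muscle markers did not move alike on both arrays. The sum over 8 endothelial markers was 8847, 11137 and 10246 in rAAV-Lmo3 arrays and 9836, 12388 and 11267 in rAAV-YFP arrays. It was lowest of its group on rAAV-Lmo3 1 and highest on rAAV-YFP 2. The smooth muscle and pericyte sum was lowest of its group on rAAV-Lmo3 1 (5432) and in the middle on rAAV-YFP 2 (8047). The part of these cell types in the receptor values was not tested. Within-group spread of the receptors was near that of all genes, with a median SD of 0.141 and 0.136. Of the 26 receptors, 15 kept the sign of their difference when any 1 array was left out (57.7%), beside 51.2% of all genes tested.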

How the data were processed

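Affymetrix mouse Gene ST arrays were used for eWAT RNA, with 3 arrays per group, each from a pool of 2 mice per the labels. The deposited values are intensities per probe set, which the authors summarised by RMA (background correction, quantile normalization, median polish) in Affymetrix Expression Console 1.1. They are linear and rounded to whole numbers, and log2 was taken here. Of 35556 probe sets, 21789 had exactly 1 gene symbol, 1621 several (0 naming a listed receptor) and 12146 none. From each of 19938 genes its brightest probe set was taken, and after the dimmest 40% by mean were dropped, 11963 genes entered limma (version 3.58.1, R 4.3.3; two-sided moderated test of lmFit and eBayes). P-values were adjusted by Benjamini-Hochberg and read at 0.05. The steps were tested on simulated data. Each gene was also given the methods' t-test. P-values cover the spread between pools of mice.

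The receptors and gene lists were chosen with earlier results of these data known. Values on every array are given for receptors with an unadjusted p under 0.05, no overlap or a difference of at least 0.3, for 12 main receptors of fat and for others that illustrate a range, and up to 4 genes of each list with the smallest p are named, plus Ncoa1 and Lmo3. Some other genes of the lists were named after their values were seen. Marker lists were read for 12 cell types. As alternatives, arrays were centred on their median, quantile-normalized again or weighted, the prior was given a trend and made robust, the replicate number entered as a block, single arrays or both that stood apart were omitted, the filter on dim genes was removed or raised to 60%, and probe sets of a gene were averaged. No batch or scan date is given in the labels. RefSeq tables (GRCm38.p6) gave promoter windows, and symbols of all 43 receptors were found there.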

Additional observations from a re-analysis of the deposited data

How the results depend on the processing

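No alternative gave a receptor an adjusted p under 0.05; over all of them receptor values were between 0.792 and 1.0 (limma or the methods' t-test). Rxrg, the 1 receptor with an unadjusted p under 0.05, was dropped with the dimmest 60% of genes and was not under it by the methods' t-test, with the replicate block or without both arrays that stood apart (0 receptors each), and the count was 0 to 1 when 1 array was left out. With 1 array left out, Rxrg was counted without rAAV-Lmo3 3 and without rAAV-YFP 3, and Nr2f2 (−0.40) was counted without rAAV-YFP 1. The count was 0 without rAAV-Lmo3 1, rAAV-Lmo3 2 or rAAV-YFP 2. In all other settings with a count of 1 the receptor was Rxrg. Among all genes, 271 were higher and 287 lower at that level, against 324 and 227 with each array centred on its median, 216 and 237 with the replicate block, and 458 lower with no filter. Leaving out 1 array gave 122 to 404 higher and 140 to 339 lower. Deviations of same-numbered arrays correlated at −0.548, −0.398 and 0.263, and those of rAAV-Lmo3 1 and rAAV-YFP 2 at 0.68. Such deviations are taken from a mean of only 3 arrays, so they cannot settle whether the numbers pair the samples. Of 156 receptor differences with 1 array left out, 137 kept their sign, and 19 of 11 receptors did not. The ranges were −0.28 to 0.079 for Pparg, −0.055 to 0.041 for Rxrb, −0.073 to 0.059 for Rara, −0.29 to 0.11 for Thra, −0.15 to 0.0345 for Nr3c2, −0.051 to 0.10 for Esrra, −0.38 to 0.0011 for Nr1d1, −0.19 to 0.23 for Nr1d2, −0.026 to 0.18 for Nr4a1, −0.046 to 0.040 for Nr5a1 and −0.11 to 0.048 for Nr6a1. Of other genes, Ncoa1 ran between −0.15 and 0.063, Abcc3 between −0.030 and 0.066, Cyp27a1 between −0.25 and 0.14 and Tnfrsf11b between −0.064 and 0.031. Without both arrays the sign turned for Rara (0.051), Nr3c2 (0.033), Esrra (−0.023), Nr1d2 (−0.13), Nr5a1 (0.032) and Slc16a10 (−0.0014). Array weights turned Rara (0.039), Esrra (−0.021), Nr1d2 (−0.12) and Nr5a1 (0.0059), centring turned Nr5a1 (0.0007), and a second quantile normalization turned Nr5a1 (0.0088) and Rxrb (−0.010). Each of the 11 receptors but Nr1d1 had a difference smaller than its SE, and the cause was not tested. With 3 arrays a group and a median SE of 0.11, small differences could not be told from 0, and dim receptors are limited by background and by rounding to whole numbers.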
